A study of Mus musculus with 6 samples.

Results

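The 10 genes described here encode the enzymes that make, recycle and spend glutathione in blastocysts, together with the cystine carrier that feeds its synthesis. They were taken by symbol from the deposited expression table, in which each of the 10 symbols matched 1 of 55774 rows through its Ensembl identifier. The rule used symbols alone, although earlier results of these data were known when it was made. Wild-type embryos of ICR mice were taken from the oviduct at the 2-cell stage and grown to blastocysts in CZB, an embryo culture medium, to which extracellular vesicles from human Fallopian tubes had been added. In the oEV-EMT group the vesicles came from women with endometriosis and in the oEV-ctrl group from women without it, for whom the sample labels give uterine fibroids and the study's methods another gynaecological condition. Each group had 3 libraries, and each library was made from a pool of 10 blastocysts. All 6 libraries received vesicles, so that the comparison is between vesicle sources, and embryos grown without vesicles were not analysed here. Nothing states that the pools came from separate cultures or vesicle donors, and the p-values measure the spread between these pools.

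Glutathione is the most abundant small thiol of animal cells. Glutamate-cysteine ligase, made of a catalytic and a modifier subunit, joins glutamate to cysteine, and glutathione synthetase then adds glycine. Peroxidases use the thiol to reduce hydrogen peroxide and lipid peroxides, transferases attach it to electrophiles, and glutathione reductase restores the oxidised form with NADPH. Oocytes load the embryo with glutathione, and the early mouse embryo is known to make little of it before the blastocyst stage.

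The peroxidases among these genes are selenoproteins, in which an in-frame TGA codon is read as selenocysteine at the active site. Of the 8 *Gpx* genes looked at in GENCODE M21, 4 carry an annotated selenocysteine codon, and they include both members, *Gpx1* and *Gpx4*. The coding bases around that codon are shown for *Gpx1* at codon 47 (chr9:108339451-108339453, plus strand, GRCm38), for *Gpx4* at codon 129 (chr10:80054737-80054739, plus strand) and for *Gpx2*, a gene described further on, at codon 40 (chr12:76795256-76795258, minus strand). The selenocysteine codon is in capitals.
Gpx1: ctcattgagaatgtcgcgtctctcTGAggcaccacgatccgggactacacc
Gpx4: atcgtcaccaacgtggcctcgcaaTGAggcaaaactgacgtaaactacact
Gpx2: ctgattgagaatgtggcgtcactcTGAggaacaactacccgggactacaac

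A second set of sequences decides how far the values of *Gpx4* and *Gstp1* can be read as those of single genes. The same window of *Gpx4* is present in the processed pseudogene *Gpx4-ps2*, on chromosome 10 from 45875291 to 45876086, with 1 difference in 51 bases, which is in capitals. From codon 24 of *Gstp1*, 60 coding bases are identical in *Gstp2*, which lies next to it on chromosome 19 from 4040285 to 4046023, and in the processed pseudogene *Gstp-ps* on chromosome 1 from 192073820 to 192074450. The window was chosen for its likeness to *Gstp-ps*, and it is printed once because it had 0 differences between these genes.
Gpx4-ps2: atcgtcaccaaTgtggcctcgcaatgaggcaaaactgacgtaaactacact
Gstp1: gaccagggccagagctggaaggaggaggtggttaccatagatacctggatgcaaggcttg

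Values are given as FPKM, fragments scaled to transcript length and library size, a unit inferred from the deposited values. FPKM keep no read totals, but the commonest ratio between libraries among genes with very low values gave a rough relative depth. By it the other 5 libraries had between 0.483 and 0.883 times the depth of oEV-EMT 1, although between 31 and 52 genes held that ratio in each. Across the 11924 tested genes the median of the log2 fold changes was 0.17 in the deposited values, 0.01 after median-of-ratios scaling and -0.04 after upper quartile scaling. Changes of the members are therefore also given relative to the median of all genes. The 7 markers of trophectoderm, the outer layer of the blastocyst, summed to between 3075 and 4826 FPKM with overlap between the groups. That sum was mostly *Krt18* and *Krt8*. Each of the 7 overlapped, with log2 fold changes from -0.39 for *Eomes* to 0.67 for *Elf5* (limma adjusted p = 0.486 and 0.270). The sum of the 6 primitive endoderm markers overlapped as well. The 6 epiblast markers summed to between 101 and 133 FPKM in oEV-EMT and between 56.2 and 98.9 in oEV-ctrl, without overlap. Of these, *Nanog* and *Pou5f1* were wholly higher in oEV-EMT, and *Sox2*, *Klf2*, *Esrrb* and *Tdgf1* overlapped. The primitive endoderm sum was mostly *Dab2*, while *Gata4* and *Sox7* of that list were wholly higher in oEV-EMT. The 6 oocyte markers summed to between 3.92 and 7.04 FPKM in oEV-EMT and between 2.42 and 3.32 in oEV-ctrl. Most of this sum was *Zp2*, which overlapped, and *Zp3*, which was wholly higher in oEV-EMT. Of the others, all very low, *Gdf9* and *Bmp15* had lower means in oEV-EMT, *Nlrp5* a higher one, and *Oosp1* was 0 throughout. All marker sums are of the deposited values, without other scaling. Of 6 cumulus cell markers 4 were listed at 0 in every library, and their sum was at most 0.486 FPKM. The part of these marker levels in the results below was not tested, and in pooled embryos fewer cells of a type and less RNA per cell cannot be told apart.

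The peroxidases, *Gsto1* and *Glrx* were far more abundant at the RNA level than both subunits of glutamate-cysteine ligase. The listed values of *Gstp1* and *Gss* lay between these, at similar levels. Over the 6 libraries *Gpx4* had a mean of 506 FPKM, and 97.5% of the tested genes had a lower mean. It was followed by *Gsto1* with 262 FPKM, *Glrx* with 213 and *Gpx1* with 156. *Gstp1* and *Gss* had means of 40.8 and 33.7 FPKM, and *Gsr* had 16.0. The genes that share sequence with *Gstp1* had means of 269 FPKM for *Gstp-ps* and 30.1 for *Gstp2*. Reads of *Gstp1* could have been assigned to any of these rows, so its level and rank are uncertain. Both subunits of glutamate-cysteine ligase ranked low, above 33.8% and 31.6% of the tested genes, with means of 4.05 FPKM for *Gclc* and 3.70 for *Gclm*. The cystine carrier *Slc7a11* was nearly absent at 0.0414 FPKM. *Gpx4* lay above *Gsto1* in 6 of 6 libraries, *Gpx1* above *Gstp1*, *Gss* above *Gsr* and *Gsr* above *Gclc* likewise. Neighbours that changed places were *Gsto1* and *Glrx* (5 of 6 libraries in this order), *Glrx* and *Gpx1* (4 of 6), *Gstp1* and *Gss* (4 of 6) and *Gclc* and *Gclm* (5 of 6).

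**Figure D1:**
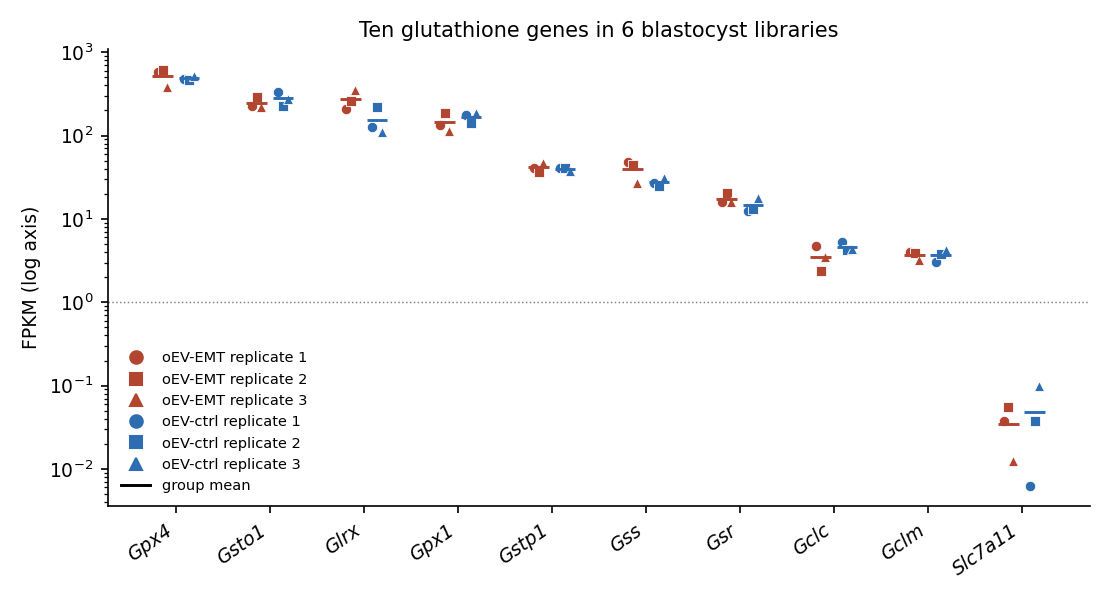
FPKM of the 10 genes on a log axis, in order of their mean level, with 1 point per library, a bar at each group mean and a dotted line at the filter of 1 FPKM. The values run from 612 FPKM for *Gpx4* to 0.00633 for *Slc7a11*, and in every gene the points of the groups overlap.

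In the deposited values none of the 10 genes separated the groups. Of the 9 members that passed the filter of at least 1 FPKM in at least 3 libraries, 0 reached both thresholds, a limma p-value adjusted by Benjamini-Hochberg over all tested genes of 0.05 or less and a log2 fold change of 1 or more in size, where 0% of all tested genes did. Adjusted p-values of the members lay between 0.222 and 0.994. With an unadjusted p-value of 0.05 or less, 1 member was higher in oEV-EMT, *Glrx*, against 12.8% of all tested genes, and 0 were lower, against 2.55%. In 0 of the 9 did all oEV-EMT values lie above all oEV-ctrl values, against 18.1% of all tested genes, and in 0 did they lie below, against 4.34%. These shares of higher and lower genes rest on the scaling. With median-of-ratios scaling 779 tested genes were higher and 765 lower at that p-value, and with upper quartile scaling 550 and 963, where the deposited values gave 1527 and 304. As shares of the tested genes these are 6.53% and 6.42%, then 4.61% and 8.08%. Median-of-ratios scaling left 9.94% of the tested genes wholly above and 10.2% wholly below the controls, and with the upper quartile these were 7.59% and 12.5%. Of the 9 members, 1 was without overlap after median-of-ratios scaling, *Gclc*, which lay wholly below the controls. After upper quartile scaling 3 were, *Gclc*, *Gpx1* and *Gsto1*, all wholly below. The median log2 fold change of the 9 members was 0.05, or -0.12 relative to all genes, with 3 above and 6 below the median of all genes.

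**Figure D2:**
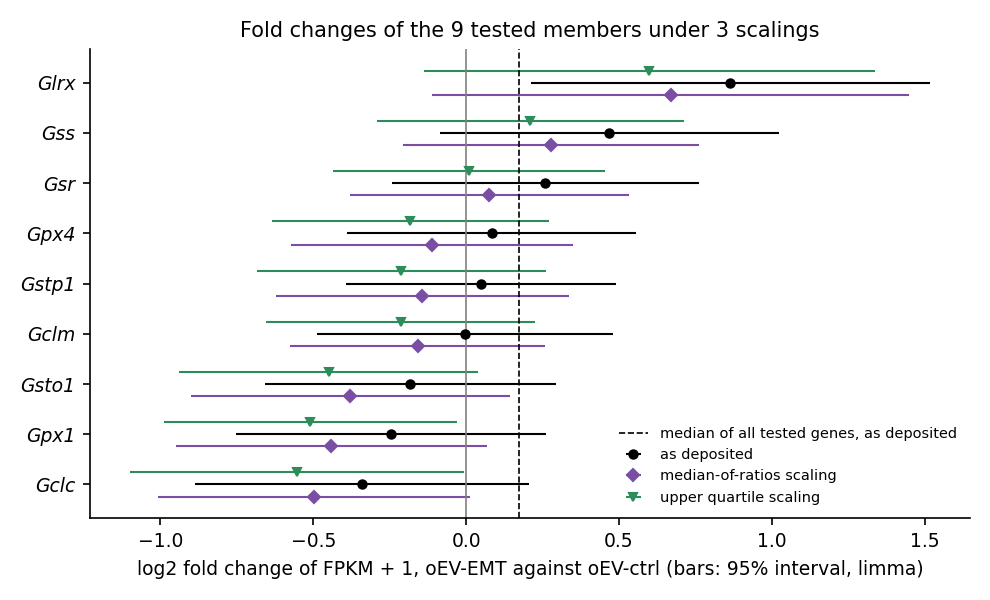
Log2 fold changes of FPKM + 1 between oEV-EMT and oEV-ctrl for the 9 tested members, with 95% intervals from limma, in the deposited values and after 2 other scalings. The dashed line marks the median of all tested genes in the deposited values, 0.17. Only the interval of *Glrx* in the deposited values and those of *Gclc* and *Gpx1* after upper quartile scaling leave out 0.

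Cystine uptake is a source, though not the only one, of the cysteine used in synthesis. *Slc7a11* (ENSMUSG00000027737, chromosome 3 from 49892526 to 50443614, minus strand), which encodes the light chain of the cystine-glutamate exchanger, was below the filter in every library. Its FPKM was 0.0372, 0.0554 and 0.0125 in oEV-EMT and 0.00633, 0.0371 and 0.0998 in oEV-ctrl. The highest and the lowest value were both in oEV-ctrl, and no fold change was computed for it. Its heavy chain *Slc3a2*, which also serves other amino acid carriers, was by contrast at 183, 205 and 133 FPKM in oEV-EMT and at 133, 129 and 142 in oEV-ctrl.

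*Gclc* (ENSMUSG00000032350, chromosome 9 from 77754535 to 77794485, plus strand) encodes the catalytic subunit of glutamate-cysteine ligase, which sets the rate of synthesis. Its FPKM was 4.67, 2.39 and 3.45 in oEV-EMT and 5.23, 4.24 and 4.34 in oEV-ctrl. A single oEV-EMT library, replicate 1, reached into the range of the controls, and the other two lay below it. The log2 fold change was -0.34 (SE 0.25, limma adjusted p = 0.530), or -0.51 relative to all genes, with a 95% interval from -0.89 to 0.20 before that subtraction. Without oEV-EMT replicate 2 it was -0.15. Without oEV-EMT replicate 1 it was -0.52, and the groups no longer overlapped. They also did not overlap after median-of-ratios or upper quartile scaling, where the log2 fold changes were -0.50 and -0.55 and the adjusted p-values 0.396 and 0.388 (limma).

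*Gclm* (ENSMUSG00000028124, chromosome 3 from 122245557 to 122270732, plus strand) encodes the modifier subunit, which lowers the enzyme's need for glutamate. It had 4.02, 3.86 and 3.18 FPKM in oEV-EMT and 3.05, 3.83 and 4.25 in oEV-ctrl, and both groups covered the same range. Its log2 fold change was -0.0048 (SE 0.22), with an interval from -0.49 to 0.48 and an adjusted p-value of 0.994 (limma). On the opposite strand *Gm17494* overlaps 296 exonic bases of *Gclm*, 4.71% of them, and had between 130 and 219 FPKM. The library protocol names no strand selection, and reads of the overlap cannot be told apart. On the same strand *Gm6061* overlaps 244 exonic bases of *Gclm*, 3.88% of them, and had between 0 and 3.68 FPKM. On either strand, 146 genes share stretches of 50 bases with *Gclm*, which cover 4.58% of its stretches. What part such reads had in the level of *Gclm* was not tested.

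The ratio of *Gclc* to *Gclm* within a library does not depend on the scaling between libraries. It was 1.16, 0.620 and 1.09 in oEV-EMT and 1.71, 1.10 and 1.02 in oEV-ctrl. These ranges overlapped, and the log2 difference was -0.43 (exact two-sided permutation test, p = 0.5, adjusted p = 0.7 over 3 ratios, where 3 libraries against 3 cannot give a p under 0.1). Without oEV-EMT replicate 2 the difference was -0.15, and without oEV-ctrl replicate 1 it was -0.21.

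*Gss* (ENSMUSG00000027610, chromosome 2 from 155563181 to 155592810, minus strand) encodes glutathione synthetase, which adds glycine in the closing step. Its FPKM was 48.2, 43.9 and 26.99 in oEV-EMT and 27.3, 25.0 and 30.7 in oEV-ctrl. The first oEV-EMT libraries stood well above the controls, while replicate 3 lay within their range. On the log2 scale oEV-EMT minus oEV-ctrl was 0.47 (SE 0.25, interval from -0.09 to 1.02, limma adjusted p = 0.394), or 0.30 relative to all genes. Without oEV-EMT replicate 1 it was 0.31, and without oEV-EMT replicate 3 it was 0.72 and the groups no longer overlapped. Of the 50-base stretches in *Gss* transcripts 10.3% occur in other listed genes, all of them its overlapping neighbours. Of these, *Acss2* had between 2.43 and 3.70 FPKM and the antisense genes *Gssos1* and *Gssos2* at most 0.190 and 0.236.

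Recycling rests on *Gsr* (ENSMUSG00000031584, chromosome 8 from 33652523 to 33698163, plus strand), the glutathione reductase. Its FPKM was 16.1, 20.4 and 15.9 in oEV-EMT and 12.5, 13.3 and 17.7 in oEV-ctrl, and control replicate 3 lay above 2 of the oEV-EMT libraries. On the log2 scale oEV-EMT minus oEV-ctrl was 0.26 (SE 0.23, interval from -0.24 to 0.76, limma adjusted p = 0.611). With single libraries left out it lay between 0.15, without oEV-EMT replicate 2, and 0.40, without oEV-ctrl replicate 3, where the groups no longer overlapped. The ratio of *Gsr* to *Gss* was 0.333, 0.465 and 0.589 in oEV-EMT and 0.456, 0.533 and 0.577 in oEV-ctrl, with overlap and a log2 difference of -0.21 (exact permutation test, p = 0.7, adjusted p = 0.7). It rested on oEV-EMT replicate 1, without which the log2 difference was 0.0115.

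*Glrx* (ENSMUSG00000021591, chromosome 13 from 75839868 to 75850154, plus strand) encodes the cytosolic glutaredoxin, which uses glutathione to free protein thiols from mixed disulphides. It varied most of the 9 tested members, 3.20 times between its highest and its lowest library. Its FPKM was 207, 261 and 349 in oEV-EMT and 128, 222 and 109 in oEV-ctrl. Control replicate 2 lay above oEV-EMT replicate 1, and this pair was the whole of the overlap. The mean was 272 ± 71.7 (SD, n = 3) against 153 ± 60.9 (SD, n = 3). The log2 fold change was 0.86, or 0.69 relative to all genes, with a standard error of 0.29, an interval from 0.21 to 1.52, an unadjusted p-value of 0.0144 and an adjusted p-value of 0.222 (limma). With each library left out in turn it lay between 0.66, without oEV-ctrl replicate 3, and 1.17, without oEV-ctrl replicate 2. After median-of-ratios scaling it was 0.67 with an unadjusted p-value of 0.0847, and after upper quartile scaling 0.60 with 0.0998 (limma).

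Of all 11924 tested genes, the one whose profile over the 6 libraries was nearest to that of *Glrx* was *Gpx2*, a glutathione peroxidase of epithelia. Nearness was the Euclidean distance between log2(FPKM + 1) values centred per gene, here 0.377, and it describes 6 libraries that share their depth and scaling. *Gpx2* had 9.16, 15.6 and 18.0 FPKM in oEV-EMT and 6.77, 11.9 and 6.48 in oEV-ctrl, with control replicate 2 again above oEV-EMT replicate 1. Its log2 fold change was 0.70 (SE 0.31, limma adjusted p = 0.313). Next were *Clec2f*, at a distance of 0.433, and *1110019B22Rik*, at 0.476. For *Gclc*, the member with the most negative fold change, the nearest genes were *Nufip2* at 0.144, *Zfp770* at 0.180 and *Oxsr1* at 0.183. No member stood among the nearest genes of another. The closest pair of members was *Gsto1* and *Gpx1*, at 0.364, where *Gsto1* ranked 84 among the tested genes by nearness to *Gpx1*.

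**Figure D3:**
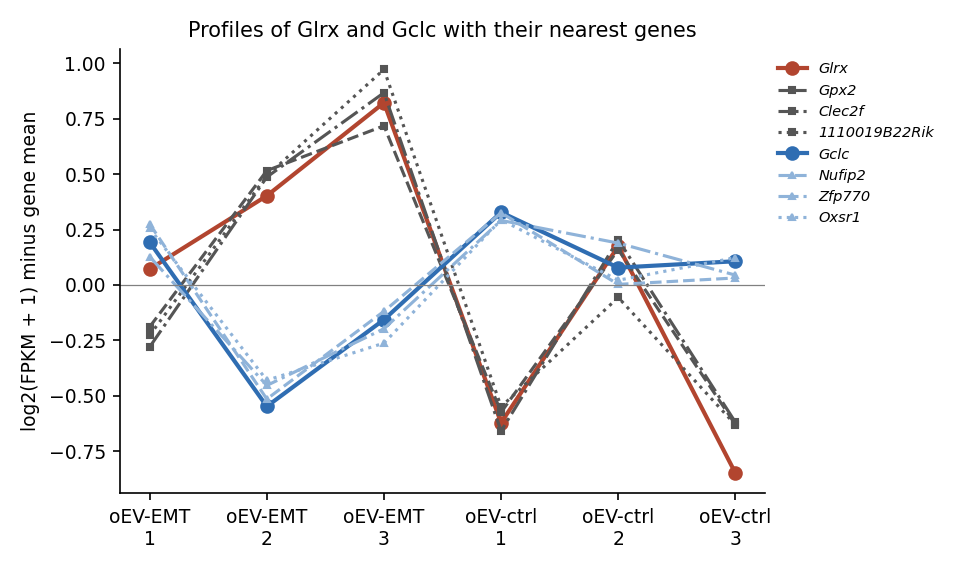
Log2(FPKM + 1) minus the mean of each gene over the 6 libraries, for *Glrx* (red) and *Gclc* (blue) with their 3 nearest tested genes each, where lines only join the points of a gene. *Glrx* and *Gpx2* share their highest library, oEV-EMT 3, and a control replicate 2 above the other controls, and *Gclc* is lowest in oEV-EMT 2.

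Both peroxidases were highly expressed, and neither differed beyond the spread between libraries. *Gpx1* (ENSMUSG00000063856, chromosome 9 from 108338903 to 108340343, plus strand), the cytosolic and mitochondrial enzyme for hydrogen peroxide, had 135, 185 and 112 FPKM in oEV-EMT and 177, 143 and 185 in oEV-ctrl. The highest oEV-EMT library exceeded every control, and the other two lay below all of them. On the log2 scale oEV-EMT minus oEV-ctrl was -0.25 (SE 0.23, interval from -0.75 to 0.26, limma adjusted p = 0.638), or -0.42 relative to all genes. Without oEV-EMT replicate 3 it was -0.0812, and without oEV-EMT replicate 2 it was -0.44, without overlap. After upper quartile scaling the groups did not overlap, with a log2 fold change of -0.51 and an adjusted p-value of 0.361 (limma).

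*Gpx4* (ENSMUSG00000075706, chromosome 10 from 80047166 to 80056439, plus strand) reduces lipid peroxides within membranes and guards cells against ferroptosis. Its FPKM was 578, 612 and 386 in oEV-EMT and 476, 465 and 519 in oEV-ctrl. As with *Gss*, the first oEV-EMT libraries lay above all controls, but replicate 3 here lay below all of them. On the log2 scale oEV-EMT minus oEV-ctrl was 0.08 (SE 0.21, interval from -0.39 to 0.56, limma adjusted p = 0.873), and it was -0.11 after median-of-ratios scaling, so that no direction can be given. Without oEV-EMT replicate 3 it was 0.29, without overlap between the groups.

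The ratio of *Gpx4* to *Gpx1*, which leaves the scaling aside, was the only one of the 3 ratios that kept the groups apart. It was 4.29, 3.30 and 3.45 in oEV-EMT and 2.69, 3.24 and 2.81 in oEV-ctrl. Every oEV-EMT ratio lay above every control ratio, although the lowest of the former and the highest of the latter were close. The log2 difference was 0.33 (p = 0.1 by the exact permutation test, which cannot go lower here, and adjusted p = 0.3 over 3 ratios). With each library left out in turn it lay between 0.22, without oEV-EMT replicate 1, and 0.41. The separation rests on the *Gpx4* row alone. With the listed values of *Gpx4-ps2* added to those of *Gpx4*, oEV-ctrl replicate 2 would exceed oEV-EMT replicate 2, and the groups would overlap.

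*Gpx4* shares 34.7% of its 50-base stretches with *Gpx4-ps2*, and 83.9% of those of the pseudogene occur in *Gpx4*. *Gpx4-ps2* was listed at 240, 238 and 182 FPKM in oEV-EMT and at 149, 196 and 164 in oEV-ctrl. Reads of *Gpx4* could have been assigned to either row, and the level of *Gpx4* is uncertain by as much. Summed over *Gpx4*, *Gpx4-ps2* and a further pseudogene, *AC122253.3*, the log2 fold change was 0.16 (SE 0.20, limma adjusted p = 0.729), and the groups overlapped.

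Among the transferases, *Gsto1* (ENSMUSG00000025068, chromosome 19 from 47854970 to 47864790, plus strand), an omega-class enzyme that acts mainly as a thiol reductase, had 224, 290 and 222 FPKM in oEV-EMT and 337, 225 and 278 in oEV-ctrl. The groups overlapped, with a log2 fold change of -0.18 (SE 0.21, interval from -0.66 to 0.29, limma adjusted p = 0.710). Without oEV-ctrl replicate 1 it was -0.0408. After upper quartile scaling it was -0.45, without overlap. No 50-base stretch of any other gene was found in *Gsto1*, *Gpx1*, *Gclc* or *Gsr*.

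*Gstp1* (ENSMUSG00000060803, chromosome 19 from 4035407 to 4037985, minus strand) encodes a pi-class transferase that conjugates electrophiles. It was the steadiest of the 10 genes, with 41.0, 36.2 and 47.5 FPKM in oEV-EMT and 40.8, 41.3 and 37.8 in oEV-ctrl. Its values spanned 1.31 times from the lowest to the highest, and the log2 fold change was 0.05 (SE 0.20, interval from -0.39 to 0.49, limma adjusted p = 0.926), with a negative sign after median-of-ratios and upper quartile scaling. The pseudogene *Gstp-ps*, 60.5% of whose stretches occur in *Gstp1*, was listed at several times the level of the gene itself. It had 267, 279 and 351 FPKM in oEV-EMT and 231, 263 and 222 in oEV-ctrl, and its lowest oEV-EMT library exceeded its highest control. Its log2 fold change was 0.32 (SE 0.19, limma adjusted p = 0.454). *Gstp2* had between 25.0 and 40.1 FPKM. Summed over *Gstp1*, *Gstp2* and *Gstp-ps*, the groups did not overlap, and the log2 fold change was 0.26 (SE 0.18, limma adjusted p = 0.516).

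**Figure D4:**
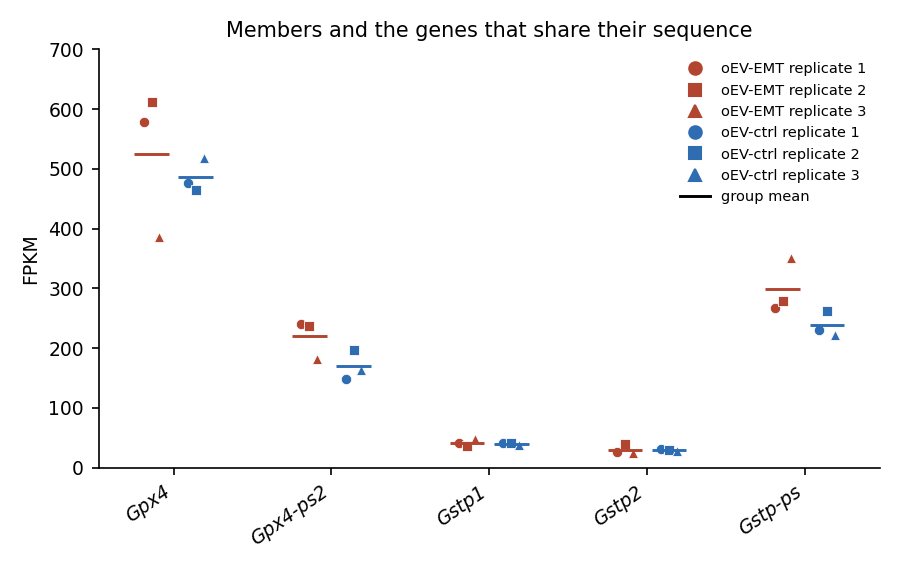
FPKM of *Gpx4* and *Gstp1* and of the listed genes that share their sequence, with 1 point per library and a bar at each group mean. *Gpx4-ps2* reaches 240 FPKM beside 612 for *Gpx4*, whereas *Gstp-ps*, at 222 to 351 FPKM, stands above *Gstp1* and *Gstp2* in every library.

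The other genes of glutathione metabolism, 77 listed by symbol, were looked at in the same way, and 59 passed the filter. Of these, 0 had a limma adjusted p-value of 0.05 or less. By the unadjusted p-value 9 of 59 were higher and 0 lower, beside 12.8% and 2.55% of all tested genes. In all, 14 lay wholly above and 1 wholly below the controls. Without overlap were thus 15 of 59, beside 18.1% above and 4.34% below among all tested genes. The median of their log2 fold changes was 0.28, which is 0.11 above that of all genes, with 33 above and 26 below the median of all genes. After upper quartile scaling 4 lay wholly above and 5 wholly below, beside 7.59% and 12.5% of all tested genes.

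The genes with the smallest p-values among those without overlap serve transport, NADPH, glutamate supply and formaldehyde removal. *Slc25a39*, a carrier that brings glutathione into mitochondria, had 199, 161 and 133 FPKM in oEV-EMT and 104, 58.6 and 85.5 in oEV-ctrl. Its log2 fold change was 1.00 (SE 0.25, limma adjusted p = 0.163). All oEV-EMT libraries lay above the highest control. *Esd*, which encodes S-formylglutathione hydrolase, had 148, 168 and 200 FPKM against 77.5, 96.7 and 115, with a log2 fold change of 0.84 (SE 0.22, limma adjusted p = 0.164). *Idh1*, the cytosolic isocitrate dehydrogenase that yields NADPH, had 79.6, 93.6 and 62.8 FPKM against 38.4, 45.2 and 52.0, and its log2 fold change was 0.78 (SE 0.22, limma adjusted p = 0.174). *Gls2*, a glutaminase that supplies glutamate, had 3.94, 4.51 and 5.76 FPKM against 1.86, 2.57 and 2.84, with a log2 fold change of 0.74 (SE 0.23, limma adjusted p = 0.194). None of these genes overlapped between the groups after median-of-ratios or upper quartile scaling either.

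The only gene of this list wholly below the controls was *Keap1*, the adaptor that sends the transcription factor NRF2 to degradation. It had 4.10, 4.08 and 2.86 FPKM in oEV-EMT and 6.88, 4.14 and 4.45 in oEV-ctrl, so that the groups were separated by a small margin. The log2 fold change was -0.38 (SE 0.25, limma adjusted p = 0.488), and it was -0.19 without oEV-ctrl replicate 1. After median-of-ratios and upper quartile scaling *Keap1* was still wholly below the controls, with log2 fold changes of -0.54 and -0.60. After scaling to a total of 1000000 the groups overlapped. *Nfe2l2*, which encodes NRF2 itself, had 89.3, 65.4 and 67.6 FPKM against 45.5, 52.1 and 62.8, without overlap. Its log2 fold change was 0.46 (SE 0.22, limma adjusted p = 0.343), and the groups overlapped after median-of-ratios and upper quartile scaling.

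*Cth*, which makes cysteine from cystathionine and was picked out here after its values were seen because *Slc7a11* was so low, had 70.2, 33.7 and 41.9 FPKM in oEV-EMT and 20.3, 31.6 and 27.6 in oEV-ctrl. The groups did not overlap, and the log2 fold change was 0.81 (SE 0.29, limma adjusted p = 0.240). Without oEV-EMT replicate 1 it was 0.51. After median-of-ratios and upper quartile scaling the groups overlapped.

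Of the other glutathione genes with the highest level in their class, *Gsta1*, an alpha-class transferase, had 600, 390 and 525 FPKM in oEV-EMT and 687, 687 and 395 in oEV-ctrl. It was above *Gpx4* in 4 of 6 libraries and overlapped between the groups. *Lap3*, a peptidase that can split the dipeptide left by glutathione breakdown, had 69.1, 78.7 and 49.4 FPKM against 72.1, 47.1 and 63.1. *Glrx3*, a glutaredoxin that carries iron-sulphur clusters, had 84.4, 89.3 and 70.0 FPKM against 90.0, 79.3 and 93.8. Both overlapped between the groups in the deposited values, and *Glrx3* lay wholly below the controls after median-of-ratios and upper quartile scaling. By class, 3 of 10 tested genes of precursor supply and transport, 3 of 7 of NADPH supply, 4 of 19 transferases, 1 of 4 peroxidases, 1 of 7 of breakdown, 1 of 3 of the glyoxalase class, 1 of 6 regulators and 0 of 3 glutaredoxins lay wholly above the controls. Among all tested genes 18.1% did.

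**Figure D5:**
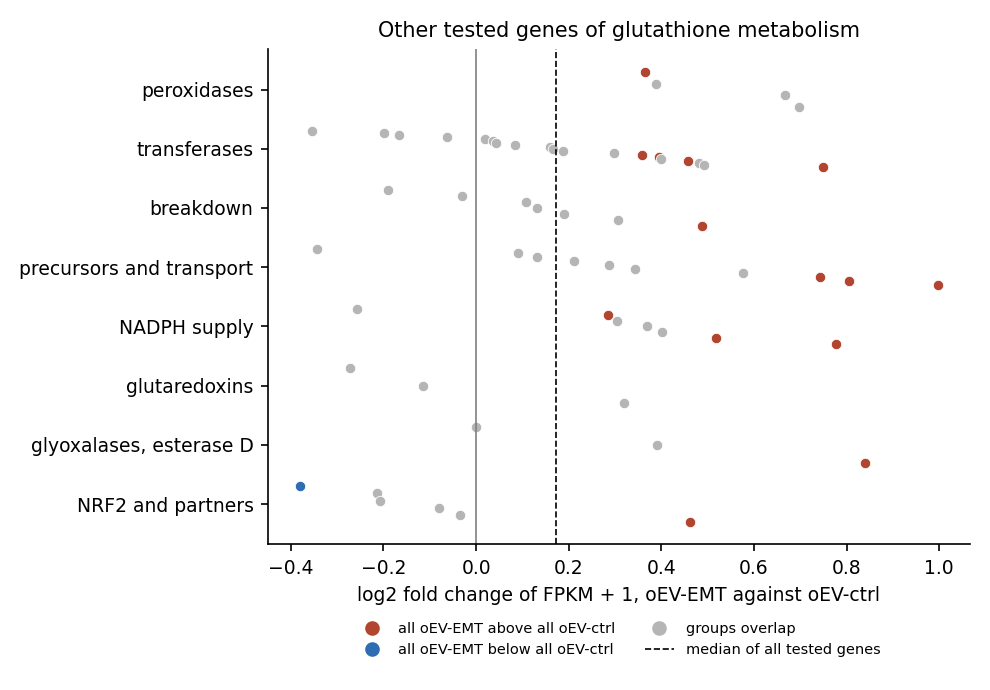
Log2 fold changes of FPKM + 1 for the 59 other tested genes of glutathione metabolism by class, with 1 point per gene. Red points are the 14 genes wholly above the controls, the blue point is *Keap1*, and grey points overlapped. The dashed line is the median of all tested genes, 0.17.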

How the data were processed

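RNA was sequenced from 6 pools of 10 blastocysts. The authors selected polyadenylated RNA, aligned the reads to mm10 per the submitters' processing notes and assembled transcripts with StringTie. The aligner is not given in the sources used here. They deposited 1 value per gene and library, which the methods call TPM. The sums lay between 1293175 and 1551567, not at 1000000, so the deposited values were taken as FPKM. A single unannotated entry, new_gene48, held 15.3%, 16.0% and 19.0% of them in oEV-EMT and 31.5%, 19.7% and 21.3% in oEV-ctrl. Its share was thus lower in every oEV-EMT library than in every control. Scaling to a total of 1000000 includes this entry. What part it had in the fold changes of other genes was not tested.

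Genes with at least 1 FPKM in at least 3 libraries were fitted as log2(FPKM + 1) with limma 3.58.1 (trend, robust) in R 4.3.3, with Benjamini-Hochberg adjustment over 11924 genes. On this scale the change of low genes is understated. Ratios were compared by exact permutation tests. Symbols, coordinates and sequences came from GENCODE M21 (GRCm38). Sequence shared between genes was measured as identical 50-base stretches, and for Gpx4 and Gstp1 the genes in which at least 10% of the stretches of either were shared were summed as copies. Relative depth was the commonest ratio between libraries among genes with very low values in both. The fit was tested on simulated data. The members and gene lists were chosen with earlier results of these data known. Named genes were the members, up to 4 other glutathione genes in each direction with the smallest p among those without overlap, the highest gene of each class, and the 3 nearest profiles for 2 members. Alternatives covered scaling, pseudocount, filter, variance model, blocking by replicate and omitting single libraries. Counting error is unknown, as read totals were not used here.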

Additional observations from a re-analysis of the deposited data

How the results depend on the processing

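Scaling decided the sign of members near 0. *Gpx4* went from 0.08 to -0.11 after median-of-ratios and -0.18 after upper quartile scaling, *Gstp1* from 0.05 to -0.14 and -0.21, and *Gclm* from -0.0048 to 0.0612 after scaling to a total of 1000000. With each library left out the log2 fold change of *Gclm* lay between -0.11 and 0.0771, of *Gpx4* between -0.0407 and 0.29 and of *Gstp1* between -0.0495 and 0.14, and the log2 difference of the ratio of *Gsr* to *Gss* between -0.40 and 0.0115. Members without overlap numbered 0 in the deposited values, 1 after median-of-ratios scaling, 3 after upper quartile scaling, 1 with copies summed (chosen after seeing the data) and between 0 and 2 with a library left out. Of all tested genes 18.1% were wholly above and 4.34% wholly below in the deposited values, 9.94% and 10.2% after median-of-ratios scaling, 7.59% and 12.5% after upper quartile scaling, and between 21.8% and 30.6% above and 5.89% and 12.6% below with a library left out. Members with an unadjusted p-value of at most 0.05 numbered 1, and then 0 after median-of-ratios scaling, 2 after upper quartile scaling and between 0 and 2 with a library left out. The other glutathione genes without overlap numbered 15, against 9 after upper quartile scaling and between 18 and 26 with a library left out, where fewer values have to be separated. The cause of the other shifts was not tested.

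The replicate numbers are shared by the groups, but same-numbered libraries deviated together with correlations of 0.119, -0.0442 and 0.0388 across genes, so they were read as numbers only. With a replicate block 0 members passed both thresholds and 1 had an unadjusted p-value of at most 0.05, and 21 genes passed both thresholds over all tested genes, against 0 without it. Over all genes 4 passed when at least 1 FPKM was required in all 6 libraries, and between 0 and 17 with a library left out. No member passed both thresholds under any alternative run.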

Other observations

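Of the 18 other glutathione genes below the filter, 4 were also higher in every oEV-EMT library than in every control, *Anpep*, *Ggt6*, *Gstm3* and *Slc7a9*, and they were picked out after their values were seen. Of the 19918 further genes fitted when the filter was dropped, 5.37% lay wholly above and 2.96% wholly below the controls. Those genes needed a value above 0 in only 1 library, whereas the 4 named genes had one in all 6. The shares are therefore of unlike sets. *Anpep*, which encodes an aminopeptidase, had 0.184, 0.530 and 0.397 FPKM in oEV-EMT and 0.0209, 0.0162 and 0.0180 in oEV-ctrl. *Slc7a9*, the light chain of another cystine carrier, had 0.619, 0.528 and 0.857 FPKM against 0.338, 0.318 and 0.412. *Gstm3* had 0.503, 0.764 and 0.663 FPKM against 0.191, 0.453 and 0.242, and *Ggt6* had 0.215, 0.333 and 0.471 against 0.134, 0.0891 and 0.160. All of these levels are under 1 FPKM. Fitted without the filter, their limma adjusted p-values lay between 0.609 and 0.674.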
